A study of Mus musculus with 8 samples.

Results

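The genes of oxidative phosphorylation were taken as all protein-coding genes on mouse chromosomes 1 to 19 whose RefSeq symbol begins with Ndufa, Ndufb, Ndufs, Ndufv, Ndufc, Uqcr, Cox4i, Cox5, Cox6, Cox7, Cox8 or Atp5, together with Sdha, Sdhb, Sdhc and Sdhd. They numbered 93 of 20661 protein-coding genes on these chromosomes, and the rule reads gene symbols and chromosomes only. By role they comprised 35 broadly used subunits of complex I, 8 complex I assembly factors (Ndufaf genes), 2 copies of Ndufb4, 4 subunits of complex II, 8 of complex III, 10 broadly used subunits of complex IV, 3 muscle isoforms and 5 other tissue-restricted isoforms of complex IV, the supercomplex factor Cox7a2l, and 17 subunits of complex V. The assembly factors, which are not subunits of the mature enzyme, and the Ndufb4 copies entered through their symbols.

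Satellite cells, the stem cells of skeletal muscle, of C57BL/6 mice were profiled by ATAC-seq, which uses the Tn5 transposase to tag accessible DNA for sequencing. The 8 libraries fell into 4 groups of 2. In the LncMyod Knockdown group, cultured cells were treated for 48 h with an siRNA against the long noncoding RNA LncMyod. The LncMyod Control group was cultured with a control siRNA, and the series' design describes both cultures as being for differentiation. ASC were isolated 2.5 days after an injury, and QSC were freshly isolated. Per the labels all cells came from hindlimb muscle, and cultured cells were kept in F10 medium with horse serum. The LncMyod Control and ASC groups differ in culture, siRNA, injury and differentiation at once, and these cannot be told apart. The labels do not say whether the 2 libraries of a group are from different animals or cultures. The p-values therefore reflect the spread among these libraries alone, and that spread may be technical.

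Oxidative phosphorylation makes ATP at the inner mitochondrial membrane. Complexes I and II pass electrons from NADH and succinate to ubiquinone, complex III passes them on to cytochrome c, complex IV hands them to oxygen, and complex V uses the proton gradient built on the way to make ATP. Most subunits are encoded in the nucleus and are needed by nearly every cell, but a few complex IV subunits exist in a broadly used form and a form used in heart and skeletal muscle: Cox6a1 and Cox6a2, Cox7a2 and Cox7a1, and Cox8a and Cox8b. Transcription factors of the NRF1, ETS (GABP), YY1 and ERR families are known to act at many of these promoters.

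The promoters of both isoforms of subunits 7a and 8 are shown because the muscle genes Cox8b and Cox7a1 differed in where peaks were found. Cox6a1, the broad partner of Cox6a2, and Atp5l, which encodes subunit g of ATP synthase and passed a test below, are shown for their motif matches. Each line gives the 250 bases before the start on the gene's strand, 5′ to 3′, from RefSeq (GRCm38.p6). Capitals mark matches, on either strand, to GCATGCG (NRF1 core), CCGGAAG (ETS), AGATGGC (YY1), AAGGTCA (ERR core) or CANCTG (E-box, the element bound by MyoD and its relatives).
Cox8b (chr7:140900447-140900696, minus strand): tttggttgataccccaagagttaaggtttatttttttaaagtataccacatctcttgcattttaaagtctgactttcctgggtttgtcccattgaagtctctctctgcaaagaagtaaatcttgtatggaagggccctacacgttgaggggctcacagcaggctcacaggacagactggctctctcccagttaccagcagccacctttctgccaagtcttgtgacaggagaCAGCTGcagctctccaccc
Cox8a (chr19:7217617-7217866, minus strand): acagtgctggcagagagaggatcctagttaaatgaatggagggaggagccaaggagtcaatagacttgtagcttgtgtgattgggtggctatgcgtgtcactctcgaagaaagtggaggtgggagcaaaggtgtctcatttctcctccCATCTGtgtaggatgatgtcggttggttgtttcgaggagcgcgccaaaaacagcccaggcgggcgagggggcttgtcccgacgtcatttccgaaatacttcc
Cox7a1 (chr7:30183921-30184170, plus strand): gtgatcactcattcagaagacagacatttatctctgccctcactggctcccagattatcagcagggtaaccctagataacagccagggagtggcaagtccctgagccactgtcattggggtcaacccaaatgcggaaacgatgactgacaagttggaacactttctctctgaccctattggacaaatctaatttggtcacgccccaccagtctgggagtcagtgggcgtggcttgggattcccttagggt
Cox7a2 (chr9:79759854-79760103, minus strand): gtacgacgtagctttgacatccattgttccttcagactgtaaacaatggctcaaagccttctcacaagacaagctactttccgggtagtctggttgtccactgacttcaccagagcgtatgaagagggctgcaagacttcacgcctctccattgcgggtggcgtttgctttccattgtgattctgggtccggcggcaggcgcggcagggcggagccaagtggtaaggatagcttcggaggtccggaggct
Cox6a1 (chr5:115348959-115349208, minus strand): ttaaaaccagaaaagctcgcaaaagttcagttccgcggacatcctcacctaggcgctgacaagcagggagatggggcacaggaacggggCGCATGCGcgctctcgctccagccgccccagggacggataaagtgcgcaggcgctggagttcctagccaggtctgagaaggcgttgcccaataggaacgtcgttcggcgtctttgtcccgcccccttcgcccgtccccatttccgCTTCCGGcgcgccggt
Atp5l (chr9:44920743-44920992, minus strand): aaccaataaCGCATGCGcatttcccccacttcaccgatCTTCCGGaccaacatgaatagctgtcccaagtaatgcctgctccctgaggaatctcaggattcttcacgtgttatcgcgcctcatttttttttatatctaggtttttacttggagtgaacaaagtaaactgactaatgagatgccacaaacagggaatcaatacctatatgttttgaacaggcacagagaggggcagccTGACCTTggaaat

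Within these 250 bases Cox8b held 1 CpG dinucleotide and 47.2% G and C, and Cox7a1 held 4 and 51.2%. Their broad partners Cox8a and Cox7a2 held 11 and 14 CpG. Cox6a1 held 26 CpG, an NRF1 core read on both strands of the palindrome between bases 161 and 154 before the start, and an ETS match between bases 16 and 10. In Atp5l the NRF1 palindrome lay between bases 241 and 234, the ETS match between bases 212 and 206, and the ERR core between bases 13 and 7. Cox8b held an E-box between bases 19 and 14, and Cox8a held one between bases 102 and 97. No match to the NRF1, ETS, YY1 or ERR motifs was found in these 250 bases of Cox8b, Cox8a, Cox7a1 and Cox7a2. Cox7a1 and Cox7a2 held no E-box either.

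Over the whole RefSeq window of 300 bases, which runs from 250 before to 50 after the start, 75 of the 93 genes had a sequence. The NRF1 core was found in 12 of them (16.0%), against 4.57% of 16456 protein-coding promoters, and the YY1 motif in 13 (17.3%), against 6.22%. The ETS motif was found in 18 (24.0%), against 12.2%, and the ERR core in 8 (10.7%), against 4.02%. At least 1 of the NRF1, ETS and YY1 motifs was present in 37 of the 75 (49.3%), against 21.0% of all promoters. The E-box was found in 32 (42.7%), against 47.9%. Both NRF1 and ETS motifs were present at Sdhb, which encodes the iron-sulfur subunit of complex II, and at Cox6a1, Uqcr11, Atp5k and Atp5l. The median window held 20 CpG and 58.7% G and C in these genes, against 14 and 56.7% in all promoters. These counts describe letters in the windows and were not tested.

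Many of these genes stand head to head with another gene. A gene on the opposite strand started within 1 kb in 25 of the 75 (33.3%), against 16.8% of protein-coding genes. Examples are Ndufs3 and Kbtbd4, 19 bp apart, Sdhd and Timm8b, 52 bp apart, and Sdha and Ccdc127, 77 bp apart. Atp5j starts 148 bp from Gabpa, which encodes the DNA-binding subunit of GABP. A peak over such a pair belongs to both genes, and the lists do not divide it. Among genes with a start peak in every library, the median of the mean start width was 996 bp for the 25 paired starts and 813 bp for the other 47.

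The measurements are peaks, not reads: each library has a list of broad peaks with a position and a fold enrichment over its own local background, as the authors' peak caller gave it. The lists carry no counts, so sequencing depth is unknown, and the absence of a peak does not show closed chromatin. Libraries held 59666 to 95449 peaks covering 42.4 to 64.0 Mb, with the LncMyod Knockdown 1 list the largest and the ASC 2 list the smallest. All 14 satellite and myogenic cell markers had a peak in their locus in all 8 libraries. So did 9 or 10 of 10 markers in each library for endothelial, for fibroadipogenic, and for glial and mural cells. A locus peak therefore does not separate satellite cells from these cell types. A start peak is any peak within 1 kb of the gene's RefSeq start, and the 18 genes without a listed start enter only the measures taken at either annotated end or over the locus. In bulk samples like these, fewer cells of a type and less open chromatin per cell cannot be told apart.

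Nearly all of these genes had a start peak in every state sampled. A start peak was present in all 8 libraries for 72 of 75 genes (96.0%), against 61.8% of 16456 protein-coding genes, and in no library for 2 genes (2.67%), against 27.2%. By library, 73 of 75 had one in each LncMyod Knockdown and LncMyod Control library and 72 of 75 in each ASC and QSC library, while the share of protein-coding genes lay between 64.8% and 68.9%. The 1 gene that made the difference was Cox8b. Counted at either annotated end, 84 of all 93 genes (90.3%) had a peak in all 8 libraries, against 60.1% of protein-coding genes.

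**Figure D1:**
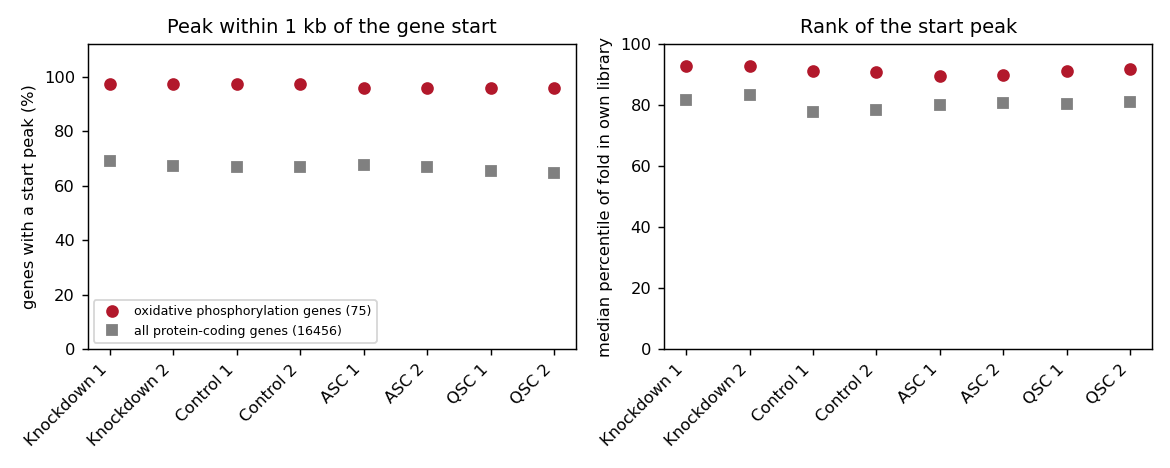
Share of genes with a peak within 1 kb of the start (left, percent) and median percentile of that peak's fold within its own library (right), for each of the 8 libraries. Red circles are the 75 oxidative phosphorylation genes with a listed start and grey squares all 16456 protein-coding genes. The red points lie above the grey ones in every library in both panels.

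The start widths of these genes were small, and their start peaks ranked high. Start width sums all peaks within 1 kb of any listed start of a gene, and the rank is that of the highest such peak. A smaller sum need not mean narrower single peaks. The median start width was 844 and 815 bp in LncMyod Knockdown, 862 and 841 bp in LncMyod Control, 899 and 858 bp in ASC, and 932.5 and 893.5 bp in QSC. In each library it was below the median of all protein-coding genes with a start peak, which lay between 933 and 1077.5 bp. Ranked by fold within its own list, the median start peak of these genes stood at percentiles 89.5 to 92.9 over the 8 libraries, against 77.6 to 83.3 for protein-coding genes. Averaged over libraries, 37 of the 72 genes with a start peak in every library stood above percentile 90 and 2 stood below percentile 50. Ranks from lists of different length show no change between groups and are given only as a description.

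Among core subunits, Atp5g1, 1 of 3 genes for the c subunit of the ATP synthase rotor, had the highest mean percentile of all, 99.7. It was followed by Cox5b, a nuclear subunit of complex IV, at 98.9, Sdha, the flavoprotein of complex II, at 98.7, and Ndufab1, the acyl carrier protein of complex I, and Cox7a2, both at 98.5. The other c-subunit genes stood lower, Atp5g3 at 79.1 and Atp5g2 at 76.5, with wider peaks of 1151 and 1635 bp on average, against 770 bp at Atp5g1. The complex I core gene Ndufv1, which encodes the subunit that binds NADH, stood at 97.8, and Atp5b, the catalytic beta subunit, at 94.9. Uqcrfs1, the Rieske iron-sulfur protein of complex III, stood at 96.8 and Uqcrc1, a core protein of that complex, at 92.2. Sdhd and Sdhb of complex II stood at 94.9 and 88.4, and Cox5a, another nuclear subunit of complex IV, at 94.4. Among core genes without a listed start, the end peaks of Sdhc stood at 97.6, of the ATP synthase alpha gene Atp5a1 at 86.4, and of the complex I gene Ndufs1 at 72.5.

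The lowest mean percentiles belonged to Cox6b2, an isoform known from testis, at 27.4, and to Cox8b, at 30.0 over the 4 libraries that held its peak. They were followed by Ndufb10, an accessory subunit of complex I, at 46.3, the assembly factor Ndufaf3 at 51.4, and Uqcrh, the hinge protein of complex III, at 64.4. Ndufb10 also had the widest range of percentiles among the broad subunits, with 62.8 and 75.2 in LncMyod Knockdown, 38.7 and 63.3 in LncMyod Control, 22.0 and 56.0 in ASC, and 25.0 and 27.5 in QSC. Its unscaled width stayed between 414 and 630 bp. Over the 72 genes the percentile ranged by a median of 8.76 points between the highest and lowest library, and by more than 20 points in 18 genes.

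**Figure D2:**
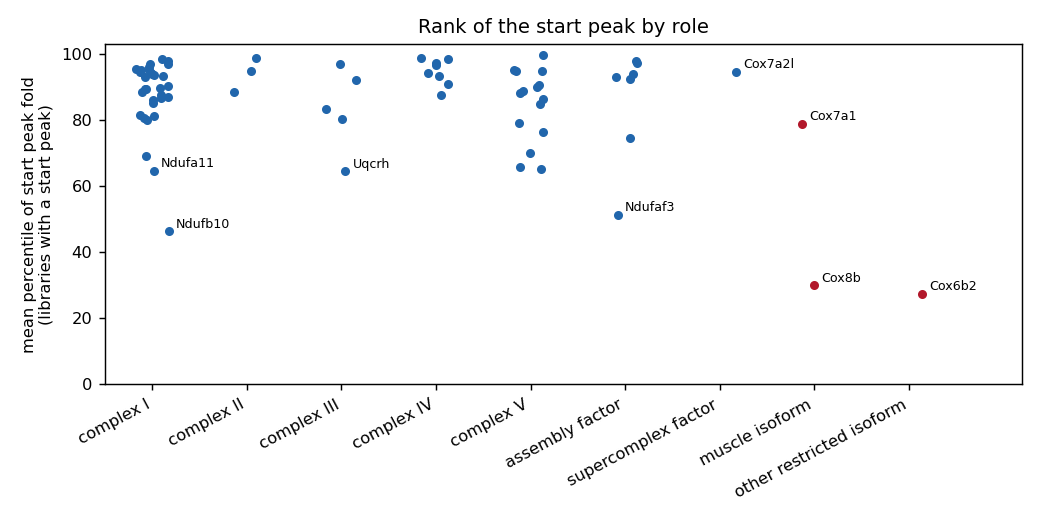
Mean percentile of the start peak's fold within its own library, over the libraries that held a start peak, for each oxidative phosphorylation gene with such a peak (y axis), arranged by role (x axis). Each point is 1 gene, with muscle and other restricted isoforms in red. Most points lie above 80, and Cox8b and Cox6b2 lie at 30.0 and 27.4.

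Isoforms restricted to other tissues were the main exceptions. Cox7b2 and Cox8c, isoforms known from testis, had no peak in any library over the gene body or within 10 kb of it. Ndufb4b and Ndufb4c, copies of Ndufb4, had no peak at either end. Cox4i2, the lung form of subunit 4, had a peak at an annotated end in 5 libraries, and where present its percentile was between 5.94 and 17.1. Ndufa4l2, the paralog of Ndufa4 known for its induction by hypoxia, had an end peak in all 8 libraries at a mean percentile of 5.74. Their broad partners stood high: Cox4i1 had an end peak in all 8 libraries at a mean percentile of 82.0, and Cox6b1 and Ndufa4 had a start peak in all 8 at 93.3 and 90.9. Cox5a and Cox7a2 are listed without an end peak only because their outermost annotated ends lie away from the listed starts, where both had a peak in all 8 libraries.

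The muscle isoforms did not behave as a set. Cox8b, the muscle form of subunit 8, had a start peak 521 and 1580 bp wide in LncMyod Knockdown and 530 and 1040 bp wide in LncMyod Control, and none in ASC or QSC. All 4 cultured libraries therefore held it and all 4 isolated libraries lacked it in the lists as deposited. The LncMyod Knockdown 2 peak was weak, with a −log10 q of 2.17 against 6.19 to 8.08 in the other cultured libraries, and was lost both at a −log10 q of at least 5 and with equal list lengths, which left 3 of the 4 cultured libraries with a peak. Among protein-coding genes, 0.93% had a start peak in both LncMyod Control libraries and neither ASC library, and 0.328% had one in all 4 cultured libraries and no isolated library. Of the 75 members, Cox8b alone met either description. Counted at either annotated end, Cox6a2 and Cox8b were gained in LncMyod Control relative to ASC in this sense, against 1.45% of 20661 protein-coding genes. In the fit of start width LncMyod Control did not differ from ASC past the threshold (limma, adjusted p = 0.175), and no fold is given because ASC is listed at 0.

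The Cox8b peak was low in its lists, at percentiles 44.1 and 11.2 in LncMyod Knockdown and 38.2 and 26.5 in LncMyod Control. It reached 173 and 1356 bases upstream of the start in LncMyod Knockdown, and 177 and 687 bases in LncMyod Control. Of the 250 promoter bases printed for Cox8b, peaks covered 173 and 250 in LncMyod Knockdown, 177 and 250 in LncMyod Control, and 0 in each ASC and QSC library, so the E-box 19 bases before the start lay inside the peak in every cultured library. The start of its broad partner Cox8a was covered over all 250 bases in all 8 libraries. Further upstream of Cox8b other peaks were present in all 8 libraries, and Psmd13 and BC024386 also lie in its locus. The locus of Cox8b did not pass in LncMyod Control against ASC (limma, adjusted p = 0.231).

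Cox6a2, the muscle form of subunit 6a, has no listed start, so its annotated ends and locus were measured. Locus length here and below is the length covered by peaks over the gene and the 10 kb beyond each end, scaled to the library's total covered length. It was 1.21 and 0.618 kb in LncMyod Knockdown, 1.52 and 1.07 kb in LncMyod Control, 0.282 and 0 kb in ASC, and 0 and 0 kb in QSC. All 4 cultured libraries lay above all 4 isolated ones. The locus rose in LncMyod Control relative to ASC (log2 1.51, SE 0.30, limma adjusted p = 0.0423), and was the only one of 90 members tested to pass in that comparison, where 4.02% of 27776 genes passed. The change is on the log2(bp + 500) scale, which understates changes from low values. The call was lost without ASC 2 (adjusted p = 0.140), LncMyod Control 1 (0.21) or LncMyod Control 2 (0.155), on the gene body alone (0.36), and with no scaling (0.0955).

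The Cox6a2 length came from separate peaks. A peak over the higher-coordinate end of the gene was present in LncMyod Knockdown 1 and both LncMyod Control libraries, 550, 528 and 221 bp wide, and in no other library. A peak of 797 bp on the other side of the gene was present in LncMyod Control 1 alone. A further peak lay beyond the higher-coordinate end, beginning 1.21 and 1.5 kb away in LncMyod Knockdown, 1.89 and 1.87 kb away in LncMyod Control and 1.91 kb away in ASC 1. It ranked higher than the end peak, at percentiles 65.4 and 66.7 in LncMyod Knockdown, 75.1 and 71.5 in LncMyod Control, and 24.1 in ASC 1. The locus also overlaps Itgad, an integrin gene of leukocytes, so leukocyte markers were set beside it. The summed locus length of 10 such markers was 15.4 and 21.7 kb in LncMyod Knockdown, 18.3 and 19.5 kb in LncMyod Control, 14.6 and 13.4 kb in ASC, and 8.51 and 9.71 kb in QSC. Of the 10, 8 and 9 had a locus peak in LncMyod Knockdown, 9 and 9 in LncMyod Control, 8 and 9 in ASC, and 5 and 4 in QSC. Adgre1 was at 0 in every library but LncMyod Knockdown 2, and Ptprc, which encodes CD45, at 0 in both LncMyod Knockdown and both QSC libraries. Of the 9 markers tested over loci, none passed between LncMyod Knockdown and LncMyod Control (limma). Itgam rose in LncMyod Control relative to ASC, where the median log2 difference of the 9 was 0.66 and 4.02% of all genes passed. Ptprc, Laptm5, Itgam and Cd3e rose in ASC relative to QSC, where 13% of all genes passed. The part of leukocytes in the Cox6a2 result was not tested.

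**Figure D3:**
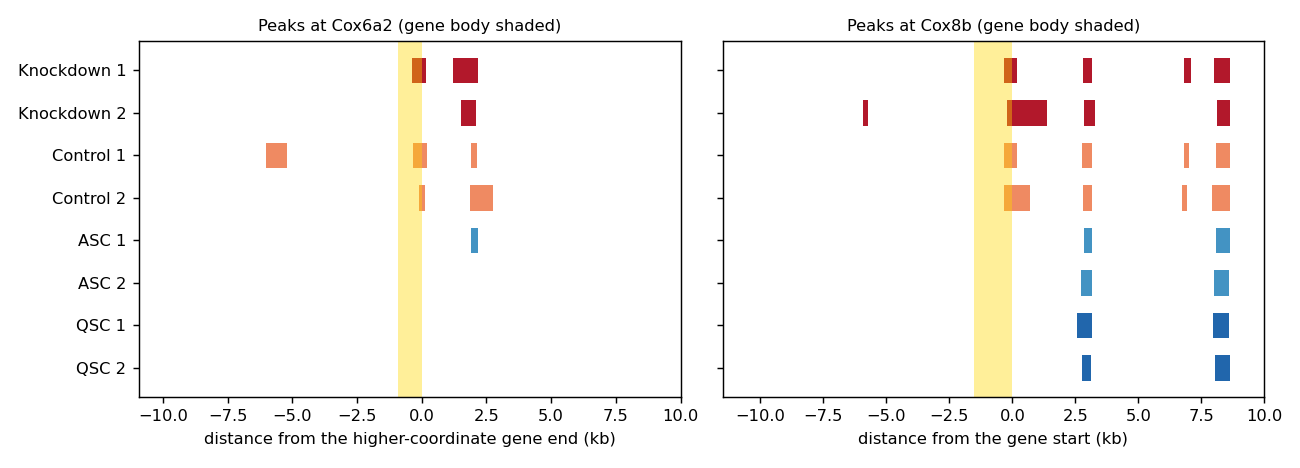
Peaks around Cox6a2 (left, distance in kb from the higher-coordinate gene end) and Cox8b (right, distance in kb from the gene start, with positive values upstream of this minus-strand gene). Rows are libraries, bars are peaks and shading is the gene body. The peaks at 0 on both maps are absent from the ASC and QSC rows, while peaks upstream of Cox8b are present in every row. Knockdown and Control stand for LncMyod Knockdown and LncMyod Control.

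Cox7a1, the muscle form of subunit 7a, had a start peak in every library. Its scaled start width was 0.654 and 0.585 kb in LncMyod Knockdown, 0.591 and 0.589 kb in LncMyod Control, 0.604 and 0.606 kb in ASC, and 0.547 and 0.598 kb in QSC. All 8 libraries lay close together, and the 2 LncMyod Knockdown values spanned those of LncMyod Control and ASC. Its start width did not pass in any comparison (limma, adjusted p = 1 for LncMyod Knockdown against LncMyod Control, 0.914 for LncMyod Control against ASC and 0.799 for ASC against QSC). Its percentile was 74.3 and 72.9 in LncMyod Knockdown, 63.5 and 80.8 in LncMyod Control, 93.9 and 83.3 in ASC, and 83.3 and 78.7 in QSC. The broad partners Cox6a1 and Cox7a2 each had a start peak in all 8 libraries at mean percentiles 87.7 and 98.5.

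**Figure D4:**
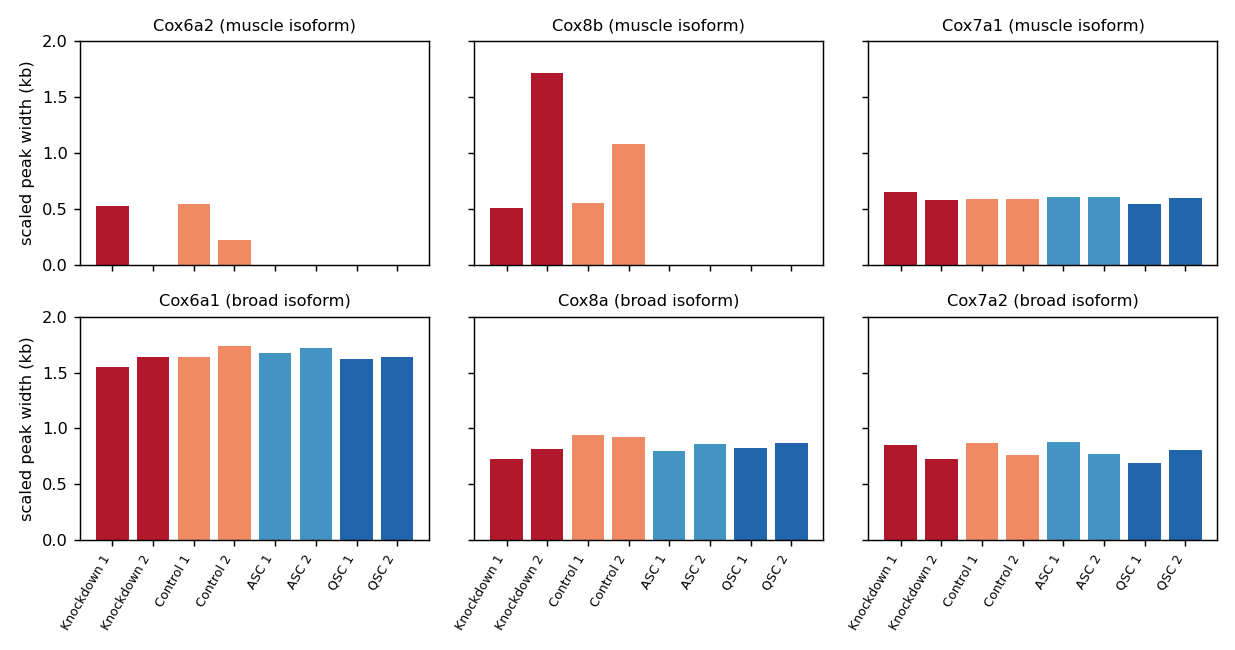
Scaled peak width in kb (y axis) in each library (x axis) for the 3 muscle isoforms of complex IV (top) and their broad partners (bottom). Widths are at the start, and at either annotated end for Cox6a2 and Cox6a1, each scaled to the library's median. Bars are absent in ASC and QSC for Cox6a2 and Cox8b and in LncMyod Knockdown 2 for Cox6a2, and the other 4 genes have a bar in every library.

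Start widths were then compared across groups for the 73 members that had at least 200 bp in at least 2 libraries. Widths were scaled to the median start width of each library, and a limma fit of log2(bp + 500) across all 15605 genes tested gave the differences and p-values. The ratio of the widest to the narrowest library had a median of 1.25 over the 72 members with a start peak in all 8 libraries, against 1.32 over 10167 protein-coding genes. It exceeded 2 in 6 members (8.33%), against 17.1%. Cox8b is not among these 72. Between the 2 libraries of a group, averaged over groups, the ratio had a median of 1.07 for the members and 1.09 for protein-coding genes. Members thus varied less within groups too, and the lower ratio is not particular to differences between groups. The median difference of the members was close to that of all genes tested, on the log2 scale −0.01 and −0.01 for LncMyod Knockdown against LncMyod Control, 0.04 and 0.03 for LncMyod Control against ASC, and −0.02 and −0.0023 for ASC against QSC.

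Between LncMyod Knockdown and LncMyod Control no member passed at the start (limma, 0 of 73, against 0.756% of all genes tested), and 4 members were under an unadjusted p of 0.05. The share of all genes under an unadjusted p of 0.05 was not taken, so such counts here and below have no background to be read against. The most negative difference was that of Ndufb8, an accessory subunit of complex I, with 0.599 and 0.691 kb in LncMyod Knockdown and 0.910 and 0.918 kb in LncMyod Control (log2 −0.31, SE 0.094, adjusted p = 0.545). Ndufc2 had 0.765 and 0.721 kb in LncMyod Knockdown and 0.931 and 0.901 kb in LncMyod Control, and Cox8a had 0.728 and 0.815 kb against 0.941 and 0.924 kb in LncMyod Control. Uqcrc1 was wider, with 0.970 and 0.998 kb in LncMyod Knockdown and 0.814 and 0.820 kb in LncMyod Control (log2 0.17, SE 0.039, adjusted p = 0.258). The libraries of these 4 genes did not overlap between the groups, as was so for 23 of the 73 members (31.5%) and for 29.9% of all genes tested, and none of the differences passed over all genes. The log2 differences of the other members named by size, at Ndufb3 and Uqcr11 (lower) and at Ndufs3, Cox6b2, Ndufa10 and Ndufa4 (higher), lay between −0.23 and 0.24 with adjusted p of 0.957 to 1.

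Over loci, no member passed between LncMyod Knockdown and LncMyod Control either (limma, 0 of 90, against 0.0252% of all genes tested), with 4 under an unadjusted p of 0.05. Among subunits of complexes I to V without the restricted isoforms, the median log2 difference by complex lay between −0.14 for complex II and −0.04 for complexes I and V, against −0.05 for all genes tested. The muscle isoforms Cox6a2, Cox7a1 and Cox8b had log2 differences of −0.36, −0.38 and 0.05, each short of the threshold (adjusted p = 0.776, 0.574 and 0.978).

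Between LncMyod Control and ASC, 2 of 73 members fell at the start (2.74%), against 3.91% of all genes tested in either direction and 1.87% in the lower direction. Under an unadjusted p of 0.05 (limma) were 14 of 73 members at the start and 14 of 90 over loci, the most of the 3 comparisons. Ndufa13, an accessory subunit of complex I, had 1.34 and 1.5 kb in LncMyod Knockdown, 1.32 and 1.37 kb in LncMyod Control, 2.06 and 2.17 kb in ASC, and 2.1 and 2.16 kb in QSC. All 4 cultured libraries lay below all 4 isolated ones (LncMyod Control against ASC, log2 −0.50, SE 0.055, limma adjusted p = 0.0095). The call was lost without ASC 2 (adjusted p = 0.0525), LncMyod Control 1 (0.0691) or LncMyod Control 2 (0.0590).

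The peak lists show the form of the Ndufa13 change. In each ASC and QSC library 1 peak of 2167 to 2222 bp ran across the start. In each cultured library there were 2 shorter peaks in its place, with upstream parts of 681 and 673 bp in LncMyod Knockdown and 681 and 712 bp in LncMyod Control, and downstream parts of 675 and 707 bp in LncMyod Knockdown and 577 and 608 bp in LncMyod Control. The outer edges stayed within 1515 to 1546 bases upstream and between 647 and 725 bases downstream in all 8 libraries. The parts had a fold of 4.60 to 5.05 in LncMyod Knockdown and 4.92 to 6.25 in LncMyod Control. The single peak had a fold of 4.26 and 3.81 in ASC and 4.32 and 4.07 in QSC. The smaller width thus did not come with a lower fold, and the folds were not tested. The uncovered stretch between the parts reached to 11 and 19 bases after the start in LncMyod Knockdown and to 104 and 110 bases in LncMyod Control. It began 837 and 843 bases before the start in LncMyod Knockdown and 837 and 811 bases before it in LncMyod Control. Tssk6 starts on the opposite strand 164 bp away, so the peaks belong to both genes.

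Atp5k, which encodes subunit e of ATP synthase, had its narrowest start peaks in culture. Its start width was 0.566 and 0.573 kb in LncMyod Knockdown, 0.582 and 0.583 kb in LncMyod Control, 0.831 and 0.926 kb in ASC, and 0.698 and 0.703 kb in QSC. The groups did not overlap between culture and isolation, and ASC was the widest (LncMyod Control against ASC, log2 −0.35, SE 0.054, limma adjusted p = 0.0308). The call was lost without ASC 2, LncMyod Control 1 or LncMyod Control 2, with adjusted p between 0.0941 and 0.145. Atp5k shares its start with the lncRNA gene Gm34319, 2 bp away on the opposite strand.

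Other members with large start differences between LncMyod Control and ASC did not pass. Cox6b2 had 0.751 and 0.582 kb in LncMyod Control and 1.54 and 0.938 kb in ASC (log2 −0.56, SE 0.20, adjusted p = 0.256). Atp5g2 had 1.45 and 1.43 kb in LncMyod Control and 1.32 and 3.23 kb in ASC, and its negative difference rested on the ASC 2 library alone. Ndufaf3 had 1.89 and 1.94 kb in LncMyod Control and 1.65 and 1.15 kb in ASC, and the 4 cultured libraries lay above the 4 isolated ones (log2 0.36, SE 0.14, adjusted p = 0.315). Ndufaf4 had 1.58 and 0.716 kb in LncMyod Control and 0.857 and 0.822 kb in ASC, so its replicates differed more than its groups. Uqcr11 and Ndufa10 had log2 differences of −0.38 and −0.35, and Ndufb3, Ndufv3 and Atp5j of 0.24, 0.22 and 0.22, with adjusted p of 0.0912 to 0.425. By role, the median log2 difference at the start was 0.04 over 31 complex I subunits, 0.07 over 3 of complex II, −0.04 over 5 of complex III, 0.04 over 8 of complex IV and 0.06 over 15 of complex V, against 0.03 over all genes tested.

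Between ASC and QSC, 1 of 73 members rose at the start (1.37%), against 5.78% of all genes tested in either direction and 3% in the higher direction. Atp5l had 1.70 and 1.84 kb in LncMyod Knockdown, 1.80 and 1.84 kb in LncMyod Control, 1.60 and 1.67 kb in ASC, and 1.24 and 1.34 kb in QSC. Both QSC libraries lay below the other 6 (ASC against QSC, log2 0.26, SE 0.049, limma adjusted p = 0.0482). The downstream edge of its peak stood 1046 and 1033 bases after the start in LncMyod Knockdown, 1046 and 1090 in LncMyod Control, 1019 and 1017 in ASC, and 500 and 580 in QSC. The upstream edge stood 646 to 803 bases before it in all 8 libraries. The call was lost when any of the 4 ASC and QSC libraries was left out (adjusted p between 0.101 and 0.214), with a pseudocount of 2000 bp (0.0591) and with no filter on low values (0.0516). The lncRNA gene Gm30934 starts 15 bp away on the opposite strand.

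No other member passed between ASC and QSC, where 8 of 73 were under an unadjusted p of 0.05. Uqcr11, a small subunit of complex III, had 0.831 and 0.972 kb in ASC and 0.669 and 0.453 kb in QSC (log2 0.41, SE 0.12, adjusted p = 0.170). Atp5k and Ndufb3 had log2 differences of 0.20 and 0.19, and Ndufaf1, Atp5h, Cox6b1 and Ndufv3 of −0.25, −0.22, −0.20 and −0.20, with adjusted p of 0.103 to 0.543. Ndufs4, an accessory subunit whose loss impairs complex I, had 0.799 and 0.676 kb in ASC and 1.55 and 0.702 kb in QSC, and only the QSC 1 library was wide. The log2 difference of 0.44 at Atp5g2 came again from the ASC 2 library. Over loci no member passed (limma, 0 of 90, against 13% of all genes tested), and 9 were under an unadjusted p of 0.05. The median locus difference of the members was 0.12, against 0.07 over all genes tested.

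**Figure D5:**
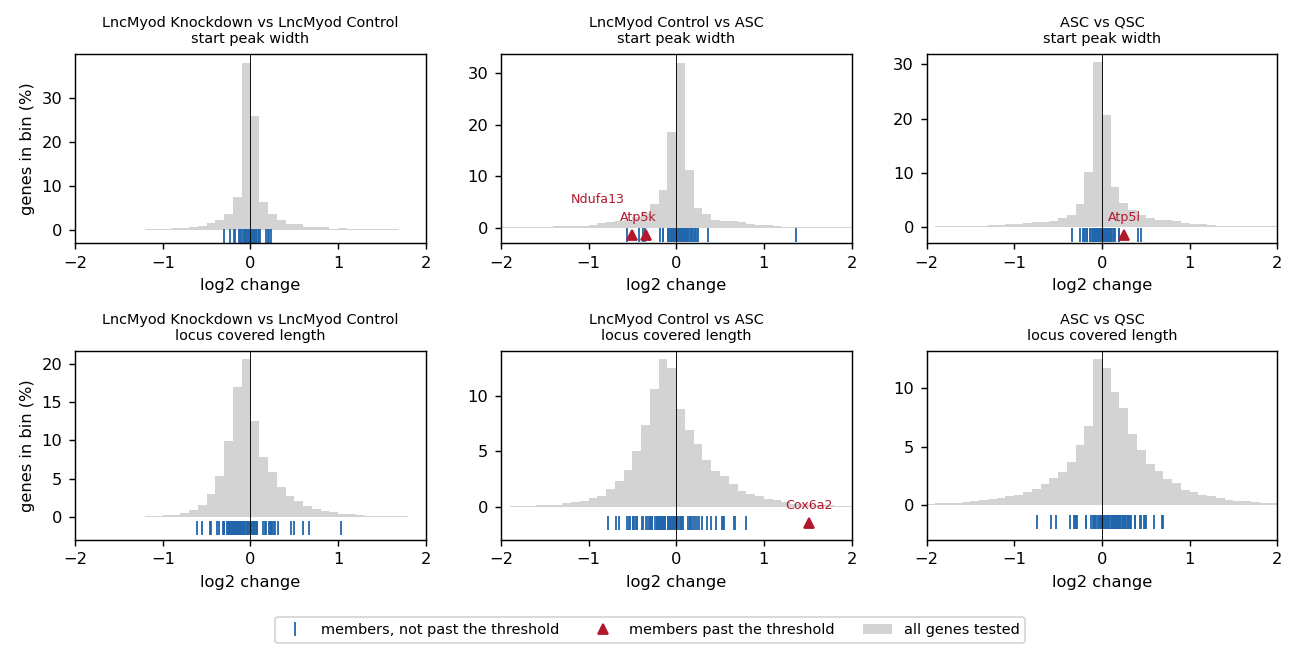
Log2 change (x axis) of start peak width (top) and locus covered length (bottom) in the 3 comparisons. Grey bars give the percent of all genes tested per bin of 0.1, blue ticks the oxidative phosphorylation genes that did not pass and red triangles those that did, at an adjusted p under 0.05. Genes beyond 2 in either direction are not drawn, and the named triangles are Ndufa13, Atp5k, Atp5l and Cox6a2.

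Peaks at the other end of the gene were less common, present at 6 to 11 of the 75 members by library. In each library this share lay below that of all 16456 protein-coding genes. It was lowest in QSC 2, at 8% against 11.97%, and highest in LncMyod Control 1, at 14.7% against 16.95%. The shares were not tested. When widths were taken at either annotated end for 87 of the 93 members, an alternative chosen after seeing the data, no member passed in ASC relative to QSC (limma, 0 of 87, against 5.73% of 20877 genes tested), with 10 under an unadjusted p of 0.05. Ndufv3 rose and Atp5k fell in LncMyod Control relative to ASC, where 4.72% of genes passed. Ndufv3, a subunit of the NADH-binding module, had 1.11 and 1.09 kb in LncMyod Knockdown, 1.56 and 1.52 kb in LncMyod Control, 0.632 and 0.668 kb in ASC, and 0.833 and 0.815 kb in QSC. The 4 groups did not overlap (LncMyod Control against ASC, log2 0.83, SE 0.049, limma adjusted p = 0.00216). It also fell in LncMyod Knockdown relative to LncMyod Control (log2 −0.35, SE 0.049, adjusted p = 0.0494), where 1.12% of genes passed. The difference between the 2 cultures came mainly from a peak over its 3′ end, which no ASC or QSC library held. That peak was 350 and 230 bp wide in LncMyod Knockdown and 677 and 701 bp wide in LncMyod Control. It was weak, with a fold of 2.66 and 2.98 in LncMyod Knockdown and 2.48 and 3.01 in LncMyod Control. The start peak had a fold of 7.09 to 8.76 in these libraries. Against ASC the start peak differed too, with unscaled widths of 825 and 773 bp in LncMyod Control and 673 and 657 bp in ASC. The fit at either end was not repeated without single libraries.

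Genes that assemble, feed or regulate the same pathway were set beside the members. Of 39 other assembly and electron transport genes, 33 were tested at the start. Sdhaf1, an assembly factor of complex II, had 1.02 and 1.03 kb in LncMyod Knockdown, 1.10 and 1.03 kb in LncMyod Control, 1.56 and 1.51 kb in ASC, and 1.02 and 1.03 kb in QSC. ASC alone was wide: it rose in ASC relative to QSC (log2 0.42, SE 0.037, limma adjusted p = 0.00393) and fell in LncMyod Control relative to ASC (−0.38, adjusted p = 0.00701), comparisons that share the ASC libraries. No other gene of that list passed at the start (limma), and between LncMyod Knockdown and LncMyod Control 4 were under an unadjusted p of 0.05. Of all genes tested, 5.78% passed at the start in ASC against QSC and 3.91% in LncMyod Control against ASC. Of 19 glycolysis genes, Tpi1, triosephosphate isomerase, rose in LncMyod Control relative to ASC, with 1.31 and 1.56 kb in LncMyod Knockdown, 1.62 and 1.60 kb in LncMyod Control, 1.05 and 1.05 kb in ASC, and 0.778 and 0.699 kb in QSC (log2 0.44, SE 0.071, adjusted p = 0.0345). That call was lost when any of the LncMyod Control and ASC libraries was left out (adjusted p between 0.111 and 0.164). Tpi1 was the only call among the 19 glycolysis genes at the start, beside 3.91% of all genes tested in LncMyod Control against ASC. At the start 6 of the 19 glycolysis genes were under an unadjusted p of 0.05 (limma) in LncMyod Control against ASC, and 6 in ASC against QSC. Both lists of regulators and TCA cycle genes were without calls at the start: none of 15 regulators of mitochondrial biogenesis and none of 14 genes of the TCA cycle passed at the start in any comparison (limma), with at most 1 and at most 2 under an unadjusted p of 0.05.

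Over loci in ASC relative to QSC, Cox20, Etfb and Cox11 of the 39 assembly and electron transport genes rose, as did Esrrb of 16 regulators and Suclg1 of 16 TCA cycle genes. Each list's share of calls was below the 13% of all genes tested that passed in that comparison. Esrrb, which encodes an ERR family receptor, covered 9.03 and 5.66 kb in LncMyod Knockdown, 6.66 and 6.75 kb in LncMyod Control, 9.39 and 11.6 kb in ASC, and 4.62 and 3.87 kb in QSC (ASC against QSC, log2 1.21, SE 0.21, limma adjusted p = 0.0147). Cox20, an assembly factor of complex IV, covered 0.929 and 1.20 kb in LncMyod Knockdown, 1.14 and 1.13 kb in LncMyod Control, 2.60 and 2.45 kb in ASC, and 1.23 and 1.41 kb in QSC. It rose in ASC relative to QSC (log2 0.73, adjusted p = 0.0232) and fell in LncMyod Control relative to ASC (−0.89, adjusted p = 0.0303). The Cox20 differences were 0.03 and −0.26 (adjusted p = 0.993 and 0.385) when peaks were required to reach a −log10 q of 5. Each of these locus calls was lost without at least 3 of the 4 libraries compared, taken 1 at a time. None of 19 glycolysis genes passed over loci in any comparison (limma), with 1 or 2 under an unadjusted p of 0.05, and no gene of these lists passed between LncMyod Knockdown and LncMyod Control in either measure, with 0 to 4 per list under an unadjusted p of 0.05.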

How the data were processed

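Chromatin accessibility was measured by ATAC-seq in 8 mouse satellite cell libraries, 2 in each of 4 groups. Reads were processed with MACS2 2.1.1, bedtools 2.26.0, Bowtie2 2.3.2, SAMtools 1.3, Trimmomatic 0.36, Picard 2.9.2 and bcl2fastq 2.19 on mm10, per the submitters' processing notes, which name these without order or settings in the form used here. The authors deposited 1 broad peak list per library, with the fold enrichment (a ratio to local background), the −log10 p-value, the −log10 q-value and a display score. In the deposited files the score equals 10 times the −log10 q-value up to a ceiling. The lists hold no read counts, so depth is unknown and no counting interval can be given. Libraries differ in list length, and a difference in depth or in peak merging alone can move a width or a rank.

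Genes came from RefSeq (GRCm38.p6, the NCBI release of mm10), and 34324 protein-coding and long noncoding genes on chromosomes 1 to 19 and X were measured. Starts and strands were known for 75 of the 93 genes. Start width is the summed width of peaks that overlap the start within 1 kb, and locus length the bases covered over the gene and the 10 kb beyond each end. Widths were scaled by the library's median over genes with a start peak in all 8 libraries, and locus lengths by the total covered length. Values of log2(bp + 500) were fitted with limma 3.58.1 in R 4.3.3 (4 group means over all 8 libraries, moderated with an intensity trend) for genes with at least 200 bp in at least 2 libraries. Benjamini-Hochberg adjustment of p-values ran over all genes tested, with a threshold of 0.05. Tested on simulated data for ASC against QSC, the fit recovered 100% of 200 genes changed by 2 on the log2 scale. Over 15605 start widths and 27776 loci, 3.85% and 2.44% of its calls were false. The changed genes were drawn only from those above the median level, and every simulated gene was given the same spread. These rates therefore need not hold for genes with narrow or absent peaks or with uneven spread. Recovery of changes smaller than 2 was not tested. Percentiles of fold were taken within each library and were not tested. Tables and plots were made with Python 3.11.15, numpy 2.4.6, pandas 2.3.3 and matplotlib 3.10.9.

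Alternatives changed the scaling, pseudocount, peak threshold, list length, filter, window, replicate block and the libraries included. The members and lists were chosen with earlier results of these data known. Genes were named if they passed the threshold, were restricted isoforms or their partners, were core subunits, had the 5 largest differences per direction and comparison, stood highest or lowest by percentile, or lacked a start peak. Genes on chromosome X lie outside the rule. The result of 1 gene named by these rules is not reported here.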

Additional observations from a re-analysis of the deposited data

How the results depend on the processing

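Of the single-gene results over all alternatives, 415 kept their direction and side of the threshold, 71 lost the call, 5 gained one and 6 changed direction. These counts pool named genes that passed in the reported fit with named genes that did not. The 415 include many results that were short of the threshold throughout, and only a gene that passed could lose a call. They therefore do not show that the calls were stable. Members with a start peak per library numbered 71 to 73 under every peak setting, within 1.5 times of each other. The difference between 73 in the cultured and 72 in the isolated libraries did not hold at a −log10 q of at least 5 (71 and 72 cultured, 71 and 72 isolated) or with equal list lengths (71 and 72 cultured, 72 isolated). Cox6b2 lost its peak in all cultured libraries under both settings and in ASC under the first, and Cox8b in LncMyod Knockdown 2 under both. For ASC against QSC at the start, members called were 0 with a pseudocount of 2000 bp, 2 with a −log10 q of at least 5, 0 with no filter and 0 at either gene end. For LncMyod Control against ASC at the start, equal list lengths gave 4 members and 1053 genes, of which 31.5% were higher, against 52.1% in the reported fit. The replicate block gave 1 member, and either gene end 986 genes. For LncMyod Knockdown against LncMyod Control at the start, the replicate block left 34 genes, and either gene end gave 1 member and 234 genes.

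For loci in ASC against QSC, no scaling left 1820 genes, and members called were 2 with a −log10 q of at least 5, 4 with equal list lengths, 1 with the replicate block and 2 on the gene body alone. For loci in LncMyod Control against ASC, no scaling gave 0 members and 368 genes, 76.9% of them higher against 56.6%. A pseudocount of 2000 bp gave 2 members, a −log10 q of at least 5 gave 2 members and 2071 genes, equal list lengths 5 members and 2987 genes, and the replicate block 548 genes. For loci in LncMyod Knockdown against LncMyod Control, the genes called were 38 with no scaling, 14 with a −log10 q of at least 5, 23 with equal list lengths, 0 with the replicate block and 50 on the gene body alone. With a −log10 q of at least 5, the share of higher calls in LncMyod Knockdown against LncMyod Control was 39% at the start, against 61% in the reported fit, and 28.6% over loci, against 100%. No scaling moved the median of all loci to 0.03 for LncMyod Knockdown against LncMyod Control, 0.04 for LncMyod Control against ASC and 0.01 for ASC against QSC. The cause was not tested.

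Leaving out 1 library at a time gave these ranges. LncMyod Knockdown against LncMyod Control had 47 to 304 genes and 0 to 0 members at the start, and 0 to 0 genes and 0 to 0 members over loci. LncMyod Control against ASC had 291 to 667 genes and 0 to 3 members at the start, and 1 to 781 genes and 0 to 2 members over loci. ASC against QSC had 337 to 857 genes and 0 to 1 members at the start, and 738 to 3042 genes and 0 to 3 members over loci. Differences changed direction without 1 library, with the ranges −0.73 to 0.039 at Ndufs4 (turned without QSC 1) and −0.077 to 0.96 at Atp5g2 (without ASC 2) in ASC against QSC. In LncMyod Control against ASC they were −0.94 to 0.092 at Atp5g2 (without ASC 2) and −0.14 to 0.64 at Ndufaf4 (without LncMyod Control 1). In LncMyod Knockdown against LncMyod Control the difference at Ndufa10 was −0.050 to 0.26 (turned without LncMyod Control 2) and −0.23 at either gene end. Same-numbered samples did not deviate together (correlations −0.0063 to 0.0963). These correlations cannot show whether such samples were paired, so the replicate block is given as an alternative fit only.

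Cox6b2 in LncMyod Control against ASC passed with equal list lengths (adjusted p = 0.0053), where both LncMyod Control libraries are listed at 0 and no fold is given. Among the named calls, the replicate block ended those of Atp5k (adjusted p = 0.0666) and Tpi1 (0.0815), and either gene end those of Ndufa13 (0.0508) and Atp5l (0.0939).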

Other observations

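Of the oxidative phosphorylation genes on chromosome X, which the rule leaves out, Ndufb11, Ndufa1 and Cox7b had start peaks in all 8 libraries. Cox7b, a subunit of complex IV, had a scaled start width of 0.498 and 0.504 kb in LncMyod Knockdown, 0.480 and 0.508 kb in LncMyod Control, 0.457 and 0.421 kb in ASC, and 0.367 and 0.403 kb in QSC. Ndufa1 of complex I varied within groups, with 0.873 and 0.749 kb in LncMyod Knockdown, 1.52 and 0.826 kb in LncMyod Control, 0.878 and 1.35 kb in ASC, and 1.17 and 1.66 kb in QSC.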
